A study of Mus musculus with 6 samples.

Results

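The transcripts of 10 heat shock and chaperone genes were followed through 6 RNA sequencing libraries of sorted mouse cells. The 10 genes were named by symbol (Hspa1a, Hspa1b, Hspa8, Hspa5, Hsp90aa1, Hsp90ab1, Hsph1, Dnajb1, Hspd1 and Hspe1), and all 10 were found once among the 54532 genes of each library. Of the 6 libraries, 4 were macrophages and 2 were leukemia cells, with 1 library per condition. WT mice were C57BL/6 mice without leukemia that received PBS, and WT/FE mice were such mice given iron dextran. MA9 mice were C57BL/6 mice transplanted with GFP+ leukemia cells and given PBS, and MA9/FE mice carried the same leukemia and received iron dextran. The iron dextran (25 mg/mL, 0.2 mL per dose) went in intraperitoneally in 6 doses on alternate days, and the controls received equal volumes of PBS on the same route. The mice were 6 to 8 weeks old. The leukemia arose from c-kit+ BM cells infected with a retrovirus that carried the MLL-AF9 fusion and GFP, so the leukemia libraries describe a single retroviral model, and the number of mice behind a library is not given in the sources used here. The labels give spleen for the macrophages, the methods of the study describe macrophages sorted from the BM, and the leukemia cells are labelled as BM. This difference was not resolved, and the values are those of the deposited libraries.

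Chaperones bind unfolded segments of other proteins and help them to fold. In the cytosol, HSP70 proteins take up a client together with a J-domain partner, release it with a nucleotide exchange factor, and can pass it on to HSP90. Hspa8 encodes the HSP70 that is made at all times, and Hspa1a and Hspa1b encode the nearly identical HSP70 proteins whose genes are switched on by heat shock factor 1 when proteins are damaged. Hspa5 (BiP) does the same work in the endoplasmic reticulum (ER), where secreted proteins such as antibodies fold, and the Hspd1 and Hspe1 products form the folding chamber of the mitochondrial matrix and its lid.

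The values are FPKM, that is, reads scaled to the length of the exons and to the reads counted in the library. Comparing levels between genes assumes that reads shared by similar genes were counted alike. Multiplying FPKM by exon length recovered whole reads, of which the libraries held 16085346 to 19518358. All 60 values of the 10 genes came out as whole reads within 0.05 reads, from 44 reads to 41604 reads, and all 10 genes had at least 10 reads in every library. No value has a replicate check. The intervals given with a fold are exact 95% intervals (Clopper-Pearson, on the reads of both libraries) and cover counting error only, not the difference between mice. Macrophage genes were present in all 4 macrophage libraries, with Adgre1 (F4/80) at 32.2 to 54.5 FPKM and Csf1r at 56.6 to 111 FPKM. Some transcripts of other blood cells were present there at higher levels, with Cd79a of B cells at 415 to 802 FPKM and Jchain of antibody-secreting cells at 601 to 1686 FPKM. By list, the median was 79.0 to 123 FPKM for B cell markers and 42.6 to 49.8 for plasma cell markers. It was 9.81 to 14.6 FPKM for T and NK cell markers and 18.8 to 49.4 for macrophage markers. In the leukemia cell libraries Cd79a was below 1 FPKM, and Hoxa9, a target of the fusion, was at 40.6 and 41.0 FPKM against 0.791 FPKM or less in the macrophages. Adgre1 was at 28.6 and 27.5 FPKM and Csf1r at 66.6 and 70.7 FPKM in the leukemia cells. These genes alone therefore do not separate the kinds of cell. The median of the macrophage markers was 4.50 and 3.93 FPKM in the leukemia cells. These are bulk libraries, so fewer cells of a type and less RNA per cell cannot be told apart.

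Hspa1a (chr17:34969190-34972156, minus strand, GRCm38) and Hspa1b (chr17:34956436-34959238, minus strand) lie side by side, and the stretches in front of their starts are shown because these were the members that differed most between libraries. The sequences are those of RefSeq (GRCm38.p6), read in the direction of the gene and ending at the base before the start. Capitals mark GAANNTTC, a pair of heat shock element units, and ATTGG, the inverted CCAAT box.
Hspa1a, chr17:34972157-34972306: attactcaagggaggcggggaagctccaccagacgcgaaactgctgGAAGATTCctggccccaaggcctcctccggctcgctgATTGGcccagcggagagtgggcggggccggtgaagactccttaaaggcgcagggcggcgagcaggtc
Hspa1b, chr17:34959239-34959388: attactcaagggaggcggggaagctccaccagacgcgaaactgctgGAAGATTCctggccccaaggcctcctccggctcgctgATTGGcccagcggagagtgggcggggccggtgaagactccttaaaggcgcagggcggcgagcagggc
The stretches had the same base at 149 of 150 positions and carried both elements at the same distance from the start.

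Shorter stretches show the elements found in front of other members. Capitals mark 3 overlapping pairs of heat shock element units in front of Hspe1, the ER stress element in front of Hspa5, and a pair of units in front of Hsph1.
Hspe1, chr1:55088054-55088083, plus strand: gtccgTTCTAGAACCTTCCGGAAggccccg
Hspa5, chr2:34772020-34772048, plus strand: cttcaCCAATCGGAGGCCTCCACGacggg
Hsph1, chr5:149636352-149636381, minus strand: tgggtagaatctTTCTCGAAggctcgagaa
These positions are relative to the RefSeq starts. By the GENCODE annotation, which starts Hspa5 and Hsph1 further upstream, the marked elements of these genes lie within an exon of the gene itself, and the Hspe1 stretch overlaps an exon of Hspd1.
Hspd1 (chr1:55077835-55088243, minus strand) and Hspe1 (chr1:55088132-55091307, plus strand) point away from each other and overlap by 112 bases, and the Hspe1 element shown lies in the 250 bases before the RefSeq start of both. The motifs GAANNTTC and TTCNNGAA were searched on both strands in those 250 bases, and 7 of the 10 genes had an entry. At least one of the 2 motifs was found for 5 of these 7 genes (Hspa1a, Hspa1b, Hsph1, Hspd1 and Hspe1) and for 14.5% of the 27025 symbols with an entry. In the other chaperone lists described below, 13 of the 89 genes with an entry (14.6%) had one. The motifs overlap, and 3 units in a row (GAANNTTC followed by NNGAA, or TTCNNGAA followed by NNTTC) were found for Hspd1 and Hspe1, which is the same site, and for 0.514% of symbols. The ER stress element (CCAAT and CCACG with 9 bases between them) was found for Hspa5 and for 0.130% of symbols. It was also found for 8 of those 89 genes of the other chaperone lists (8.99%), Hsp90b1 and Calr among them. Hspa8, Hsp90aa1 and Hsp90ab1 had no entry.

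Reads can be shared between near-identical genes. Of the stretches of 100 bases in the Hspa1a transcripts, 56.5% also occur in transcripts of other genes, chiefly in Hspa1b. Of those of Hspa1b, 49.9% occur in Hspa1a. The split between these genes is therefore uncertain, and their sum is given as well. How shared reads were counted is not known, and leaving them out would lower the sum too. Gm20481 is annotated on the opposite strand across Hspa1a and was listed at 0 in all 6 libraries. Other annotated genes share 31.6% of such stretches with Hsp90aa1 (Gm12346, between 1.43 and 5.01 FPKM), 26.3% with Hspa8 (Gm15459, listed at 0) and 22.4% with Hspd1 (Hspd1-ps3, between 1.62 and 6.36 FPKM). Hspe1 shared 11% of such stretches, chiefly with AC117239.2, for which no level was listed. Hspa5, Hsp90ab1, Hsph1 and Dnajb1 shared none.

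The levels of the 10 genes spanned more than 2 orders of magnitude. Hsp90ab1, the constitutive cytosolic HSP90, stood highest in all 6 libraries, followed by Hspa8. In macrophages the 10 genes together took 0.395% (WT), 0.305% (WT/FE), 0.571% (MA9) and 0.536% (MA9/FE) of reads, and leukemia cells had 0.683% with PBS and 0.645% with iron. The share was thus lowest in WT/FE macrophages and highest in MA9 leukemia cells.

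**Figure D1:**
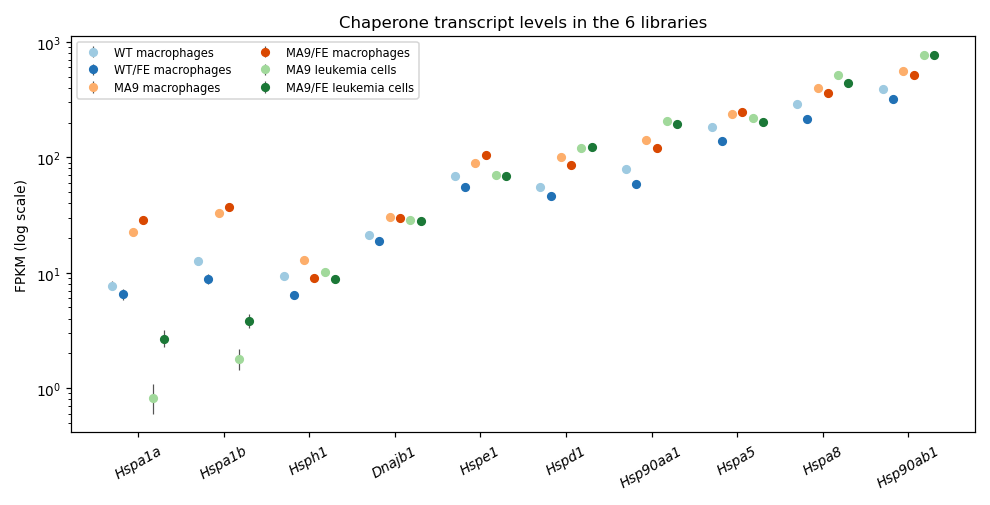
FPKM (log axis) of the 10 genes in the 6 libraries. Each point is 1 library and each bar its exact 95% interval for counting error; Hspa1a and Hspa1b are lowest in the leukemia cells (0.817 to 3.82 FPKM) and highest in MA9 and MA9/FE macrophages (22.6 to 36.9 FPKM), while the other 8 genes stay within a factor of 3.50.

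Hspa1a and Hspa1b, the stress-inducible HSP70 genes, had the widest range. Hspa1a was in macrophages at 7.72 FPKM (WT), 6.48 (WT/FE), 22.6 (MA9) and 28.5 (MA9/FE), and in leukemia cells at 0.817 FPKM with PBS and 2.68 with iron. Hspa1b was at 12.7, 8.81, 32.7 and 36.9 FPKM in the same order of macrophages, while leukemia cells had 1.79 FPKM with PBS and 3.82 with iron. Both genes had the same order of libraries, from MA9/FE macrophages down through MA9, WT and WT/FE macrophages to MA9/FE and then MA9 leukemia cells, and counting error separated every neighbouring pair in it. After scaling across the 6 libraries, the highest level was 36.6 times the lowest for Hspa1a and 21.7 times for Hspa1b, against 1.63 to 3.46 times for the other 8 genes.

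Hspa8, the constitutive HSP70, had a different order. It was in macrophages at 289 FPKM (WT), 215 (WT/FE), 399 (MA9) and 361 (MA9/FE), and in leukemia cells at 512 FPKM with PBS and 442 with iron, so that the leukemia cells were above all macrophage libraries. The sum of Hspa1a and Hspa1b was 7.06% of Hspa8 in WT and 7.11% in WT/FE macrophages. Macrophages of MA9 mice had 13.9% and those of MA9/FE mice 18.1%, against 0.509% in leukemia cells with PBS and 1.47% with iron.

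The HSP70 partners had narrower ranges than Hspa1a and Hspa1b, 1.63 times for Dnajb1 and 2.05 times for Hsph1 after scaling across the libraries. Dnajb1, a J-domain protein that brings clients to HSP70, was in macrophages at 21.3 FPKM (WT), 19.0 (WT/FE), 30.1 (MA9) and 29.8 (MA9/FE), and in leukemia cells at 28.5 FPKM with PBS and 27.9 with iron. The last 2 could not be separated by counting error, nor could MA9 and MA9/FE macrophages. Hsph1 (HSP110), a nucleotide exchange factor of HSP70, was in macrophages at 9.41 FPKM (WT), 6.38 (WT/FE), 12.9 (MA9) and 9.05 (MA9/FE), and in leukemia cells at 10.2 FPKM with PBS and 8.87 with iron. It was the member in which most neighbours in the order of libraries (3 of 5 pairs) were not separated.

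The cytosolic HSP90 genes shared 1 order among the macrophages. Hsp90aa1, the more inducible of the pair, was in macrophages at 78.5 FPKM (WT), 59.2 (WT/FE), 141 (MA9) and 121 (MA9/FE), and in leukemia cells at 207 FPKM with PBS and 194 with iron. Hsp90ab1 was at 394, 317, 561 and 519 FPKM in the same macrophages, while leukemia cells had 764 and 774 FPKM, which counting error did not separate. Hsp90aa1 was 18.7% to 19.9% of Hsp90ab1 in the WT and WT/FE macrophages and 23.3% to 27.2% in the other 4 libraries.

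The mitochondrial pair did not keep a fixed ratio. Hspd1 (HSP60) was in macrophages at 54.8 FPKM (WT), 46.2 (WT/FE), 101 (MA9) and 85.5 (MA9/FE), and in leukemia cells at 121 FPKM with PBS and 124 with iron. Hspe1 (HSP10), its lid, was at 69.2, 55.2, 89.3 and 105 FPKM in the macrophages, while leukemia cells had 70.2 and 69.5 FPKM. The ratio of Hspe1 to Hspd1 was 1.26 (WT), 1.20 (WT/FE), 0.880 (MA9) and 1.23 (MA9/FE) in macrophages, with 0.578 and 0.561 for the leukemia cells, so that Hspd1 exceeded its partner in 3 of the 6 libraries. Hspa5 was in macrophages at 182 FPKM (WT), 138 (WT/FE), 238 (MA9) and 247 (MA9/FE), and in leukemia cells at 218 FPKM with PBS and 204 with iron, a range of 1.78 times in FPKM.

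**Figure D2:**
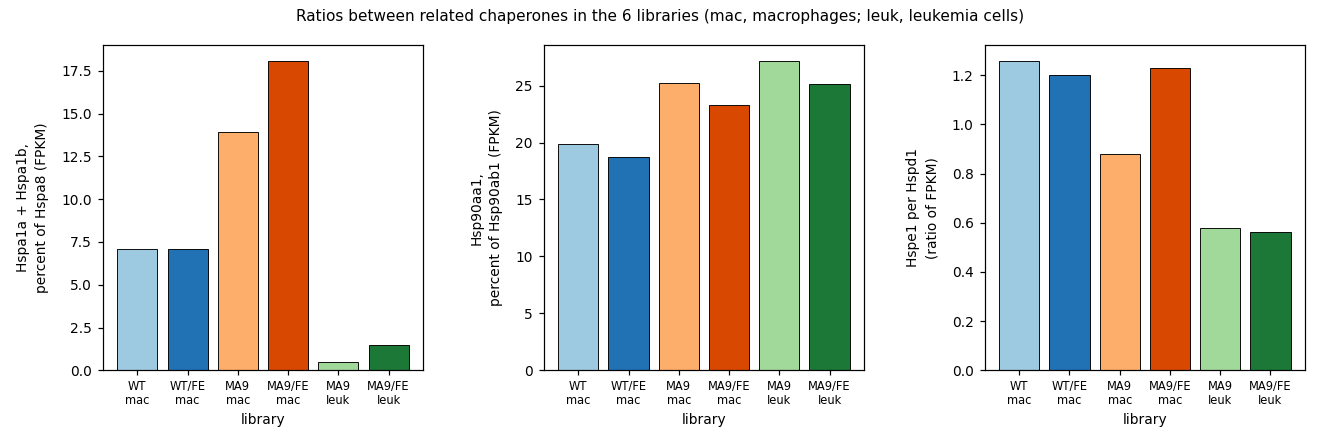
Ratios of FPKM between related chaperones, 1 bar per library without error bars. The inducible HSP70 pair reaches 18.1% of Hspa8 in MA9/FE macrophages and 0.509% in MA9 leukemia cells, and Hspe1 per Hspd1 is lowest, 0.561, in MA9/FE leukemia cells.

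The presence of leukemia was compared first. Each of the 10 genes was higher in the MA9 than in the WT library. The median log2 fold change was 0.51 on the log2(FPKM + 1) scale, beside -0.0031 over the 16646 genes kept. This scale understates the change of low genes. Hspa1a was 2.95-fold (2.64 to 3.30) and Hspa1b 2.60-fold (2.38 to 2.85) higher, and both had a fold of at least 2 (log2 fold changes 1.45 and 1.31). These 2 of 10 stand beside 3.81% of all genes kept that were higher by this rule and 0.877% that were lower. Hspd1 followed at 1.87-fold (1.78 to 1.96) and Hsp90aa1 at 1.82-fold (1.76 to 1.88). The remaining 6 genes were 1.30- to 1.44-fold higher, and all 10 counting intervals lay above 1, beside 29.1% of the genes kept, of which 49.5% had a log2 fold change above 0.

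The same comparison in iron-loaded mice used the other 2 macrophage libraries, so the comparisons share no library. All 10 genes were again higher in MA9/FE than in WT/FE macrophages. Their median was 0.87 on the log2 scale, beside 0.01 over 16265 genes. Hspa1a was 4.47-fold (3.95 to 5.06), Hspa1b 4.25-fold (3.82 to 4.75) and Hsp90aa1 2.07-fold (1.99 to 2.15) higher. These 3 of 10 stand beside 2.97% of all genes kept that were higher by a fold of at least 2 and 1.62% that were lower. With the trend on exon length removed, Hsp90aa1 missed the rule at a log2 fold change of 0.98, and the genes called over the whole library turned from 483 higher and 263 lower to 320 higher and 406 lower. Hspe1 was 1.92-fold (1.80 to 2.06), Hspd1 1.88-fold (1.78 to 1.98) and Hspa5 1.81-fold (1.77 to 1.86) higher. Hsph1 had the smallest ratio, 1.44 (1.31 to 1.58).

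In both MA9 libraries 9 of the 10 genes were above both WT libraries, all but Hsph1, and 28.4% of the 15989 genes tested had that pattern. In the additive limma fit of leukemia and iron over the 4 macrophage libraries, whose residual is the difference between both iron effects, Hspa1a rose by 1.74 ± 0.21 (SE, adjusted p = 0.0304) and Hspa1b by 1.66 ± 0.22 (adjusted p = 0.0371) on the log2 scale with leukemia. These 2 of 10 stand beside 1.31% of the 15989 genes that passed as higher. The other 8 genes had effects of 0.46 to 0.96 and adjusted p-values by limma of 0.0673 (Hsp90aa1) to 0.285 (Hsph1). The call was lost with a pseudocount of 0.1 FPKM and without a minimum of reads, where 0 of the 10 genes passed. With 1 library per condition, this fit cannot tell the difference between the iron effects from the difference between mice.

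**Figure D3:**
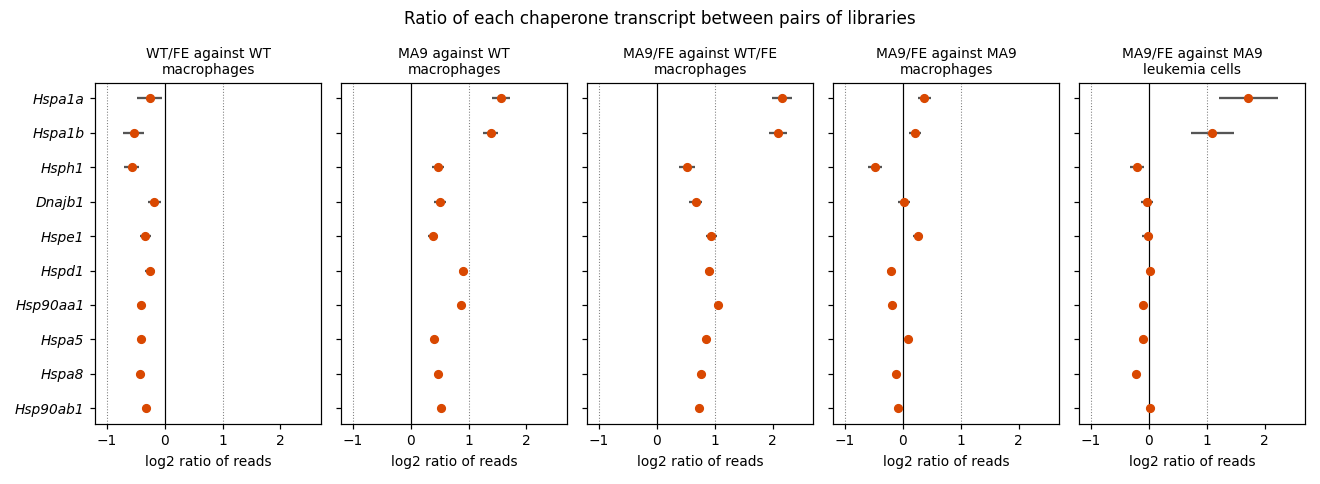
Log2 ratio of TMM-scaled reads of the 10 genes between pairs of libraries, with exact 95% intervals for counting error; dotted lines mark a fold of 2. All 10 points lie left of 0 for WT/FE against WT macrophages and right of 0 for both comparisons of MA9 with WT mice, while for iron in leukemia cells only Hspa1a and Hspa1b lie right of 1.

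Other gene groups also differed between mice with and without leukemia, and their part in the values above was not tested. Between MA9 and WT macrophages, 12 of 13 neutrophil markers, 16 of 17 cell cycle genes, 8 of 10 erythroid markers and 4 of 9 plasma cell markers were higher by a fold of at least 2. All 10 B cell markers were lower (median log2 fold change -0.73), and their macrophage sums were 2286 FPKM (WT), 2156 (WT/FE), 1277 (MA9) and 2209 (MA9/FE). Between MA9/FE and WT/FE macrophages, 11 of 13 neutrophil markers, 10 of 17 cell cycle genes and 8 of 10 erythroid markers were higher by a fold of at least 2. So were 3 of 9 plasma cell markers and 5 of 11 T and NK cell markers. Of these 11, 8 were above 0 and 3 below (median 0.73). The summed level of the neutrophil markers was 8.52 to 11.2 FPKM without leukemia and 966 to 1906 FPKM with it, and that of the cell cycle genes was 193 to 205 against 432 to 634 FPKM. Elane, which was at 1270 to 1705 FPKM in the leukemia cells, was at 56.8 FPKM (MA9) and 29.4 FPKM (MA9/FE) in macrophages. The leukemia cells held less Hspa1a and Hspa1b than any macrophage library, and more Hspa8, Hsp90aa1, Hsp90ab1 and Hspd1. Immunoglobulin genes took 2.64% (WT), 2.99% (WT/FE), 5.35% (MA9) and 6.80% (MA9/FE) of macrophage reads, the same order of libraries as Hspa5 except that WT and WT/FE changed places.

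Iron loading without leukemia was compared next. All 10 genes were lower in WT/FE than in WT macrophages. The median of their log2 fold changes was -0.36, beside -0.01 over 16487 genes kept, of which 53.5% were below 0. Hsph1 had the lowest log2 fold change, -0.50, then Hspa1b at -0.49, Hspa8 at -0.43, Hsp90aa1 at -0.41 and Hspa5 at -0.40. Hspa1a (-0.23) and Dnajb1 (-0.17) were nearest to 0. None of the 10 had a fold of at least 2, beside 0.534% of genes that were lower by this rule and 0.691% that were higher. The libraries also differed in cell type markers, since 5 of 15 macrophage markers were higher by a fold of at least 2 with iron and the median of the 11 T and NK cell markers was -0.48. Their part was not tested. This comparison shares the WT library with that of MA9 against WT macrophages.

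With leukemia present, the genes did not share a direction with iron. In MA9/FE against MA9 macrophages 5 genes were higher and 5 lower, and the median of their log2 fold changes was -0.03 beside 0.01 over 16206 genes. Hspa1a was 1.30-fold (1.20 to 1.40), Hspe1 1.20-fold (1.14 to 1.27), Hspa1b 1.16-fold (1.08 to 1.24) and Hspa5 1.06-fold (1.04 to 1.09) higher, whereas the interval of Dnajb1 included 1 and its sign turned with total reads, median of ratios or length-trend scaling. Hsph1 was the lowest, at a ratio of 0.718 (0.663 to 0.776), and Hspd1, Hsp90aa1, Hspa8 and Hsp90ab1 lay between 0.864 and 0.949. None of the 10 had a fold of at least 2, beside 1.17% of genes higher and 1.23% lower. The genes called over the library went from 189 higher and 200 lower to 114 and 295 with the length trend removed. Counting intervals lay below 1 in WT and above 1 in MA9 macrophages for 4 of the 10 genes (Hspa1a, Hspa1b, Hspa5 and Hspe1), beside 9.74% of 15560 genes. In this pair all 15 macrophage markers were higher with iron, 8 of them by a fold of at least 2 (median 1.10, sum 524 to 1163 FPKM), and all 10 B cell markers were higher (median 0.57). Neutrophil markers were lower in 12 of 13 cases (median -0.89) and cell cycle genes in 17 of 17 (median -0.53). The part of these markers was not tested.

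In leukemia cells Hspa1a and Hspa1b were the only 2 of the 10 genes whose counting interval lay above 1 with iron, beside 15.6% of 15278 genes. Hspa1a went from 44 to 142 reads, a ratio of 3.28 (2.33 to 4.71), and Hspa1b from 91 to 191 reads, a ratio of 2.13 (1.65 to 2.77). On the log2(FPKM + 1) scale the changes were 1.02 and 0.79, so that 1 of 10 had a fold of at least 2, beside 0.380% of genes that were higher and 0.432% that were lower. With a pseudocount of 0.1 FPKM Hspa1b also passed, at 1.05. The other 8 genes had ratios of 0.862 (Hspa8) to 1.02 (Hspd1). The immediate early genes, a separate set of rapidly induced transcription factors and regulators, were higher in 18 of 18 cases with a median of 0.66, and 5 of 18 had a fold of at least 2. Fos went from 94.7 to 299.8 FPKM and Fosb from 24.4 to 91.4 FPKM. Erythroid markers were lower in 9 of 10 cases (median -0.85, sum 429.5 to 164 FPKM, 5 by a fold of at least 2) and neutrophil markers in 12 of 13 (median -0.43). The part of these groups in the HSP70 values was not tested.

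Over the 3 pairs of libraries with and without iron, limma with the kind of cell as a block called 0 of the 10 genes and 0 of 16899 genes at an adjusted p of 0.05, with 1 of the 10 and 589 genes at an unadjusted p under 0.05. That gene was Hsph1, which was lower with iron in 3 of 3 pairs (effect -0.37 ± 0.10 SE, adjusted p = 0.993 by limma). The iron term over the 4 macrophage libraries also called 0 of 10 genes and 0 of 15989 genes (574 unadjusted).

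**Figure D4:**
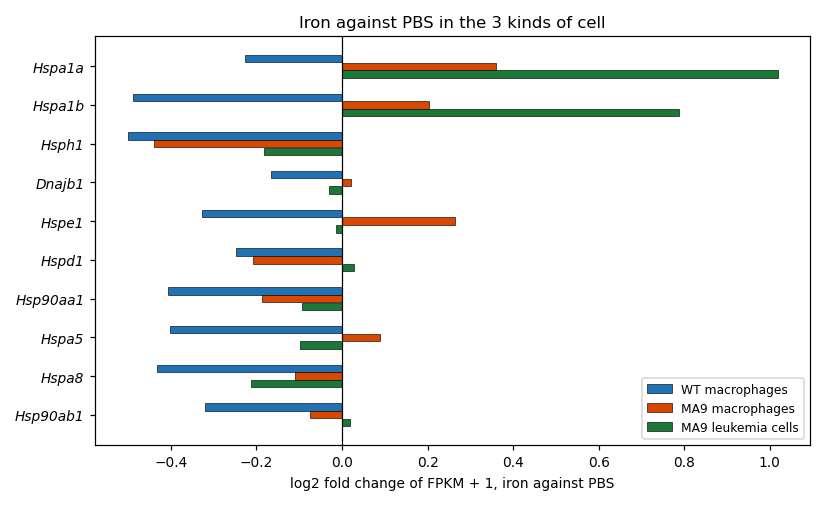
Log2 fold change of FPKM + 1 with iron against PBS for each gene in WT macrophages, MA9 macrophages and leukemia cells, 1 pair of libraries per bar. All 10 genes are below 0 in WT macrophages, Hspa1a reaches 1.02 in leukemia cells, and Hsph1 is below 0 in all 3 kinds of cell.

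Leukemia cells were then set against the macrophages of the same group of mice. By the labels the macrophages came from spleen and the leukemia cells from BM, so kind of cell and tissue cannot be told apart here. Hspa1a was 28.2-fold (20.9 to 39.1) and Hspa1b 18.7-fold (15.2 to 23.4) lower in MA9 leukemia cells than in MA9 macrophages, and 10.8-fold (9.12 to 13.0) and 9.87-fold (8.49 to 11.5) lower in MA9/FE leukemia cells than in MA9/FE macrophages. These 2 of 10 were the only ones with a fold of at least 2 in either comparison, beside 12.7% and 13.3% of all genes that were lower and 7.41% and 9.68% that were higher. Hsp90aa1 was 1.44-fold (1.40 to 1.47) and 1.58-fold (1.53 to 1.62) higher in the leukemia cells, and Hsp90ab1 1.33-fold (1.31 to 1.35) and 1.46-fold (1.44 to 1.48). Hspa8 and Hspd1 were 1.17- to 1.42-fold higher, and Hspe1 was lower at ratios of 0.768 (0.722 to 0.817) and 0.650 (0.611 to 0.690). Both leukemia libraries were above all 4 macrophage libraries for 4 of the 10 genes, beside 32.1% of all genes, and below all of them for 2 of the 10, beside 36.3%. The immediate early genes were also lower in the leukemia cells, by a fold of at least 2 for 15 of 18 in MA9 and 10 of 18 in MA9/FE mice, and their part was not tested.

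The other chaperone genes were described by lists, some of which share genes (Hsp90b1, Hyou1, Hspa9 and Trap1 among them). Between MA9 and WT macrophages all 8 subunits of the CCT chaperonin, which folds actin and tubulin, were higher, their median being 0.41 on the log2 scale, and none with a fold of at least 2. The ER list had 21 of 23 genes higher with a median of 0.44, and 2 had a fold of at least 2. These were Xbp1, a transcription factor of the unfolded protein response (1.21), and Derl3, a factor of ER-associated degradation (1.12), and both are also among the 4 plasma cell markers with such a fold. Creld2 and the ER HSP90 gene Hsp90b1 were each at 0.96. Hsp90b1 was in macrophages at 135 FPKM (WT), 131 (WT/FE), 262 (MA9) and 289 (MA9/FE), and in leukemia cells at 140 FPKM with PBS and 143 with iron.

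The co-chaperones of HSP70 and HSP90 had 19 of 22 genes higher with a median of 0.23, and Bag2 alone had a fold of at least 2 (log2 fold change 1.13). J-domain proteins other than Dnajb1 had a median of 0.08 and prefoldin subunits of -0.02. In MA9/FE against WT/FE macrophages the medians were 0.58 for CCT, 0.58 for prefoldin, 0.59 for the ER list, 0.42 for co-chaperones and 0.25 for J-domain proteins. The ER list had 5 of 23 genes past a fold of 2, among them Creld2 (1.64), Manf, a secreted protein of the ER stress response (1.45), Hsp90b1 (1.15) and Sdf2l1 (1.14). With iron in WT macrophages all 8 CCT and all 6 prefoldin genes were lower (medians -0.21 and -0.32). In MA9 macrophages all 6 prefoldin genes were higher with iron (median 0.31) and CCT had 4 higher and 4 lower (median 0.04), and in the leukemia cells the medians of these lists with iron were -0.04 and 0.02.

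**Figure D5:**
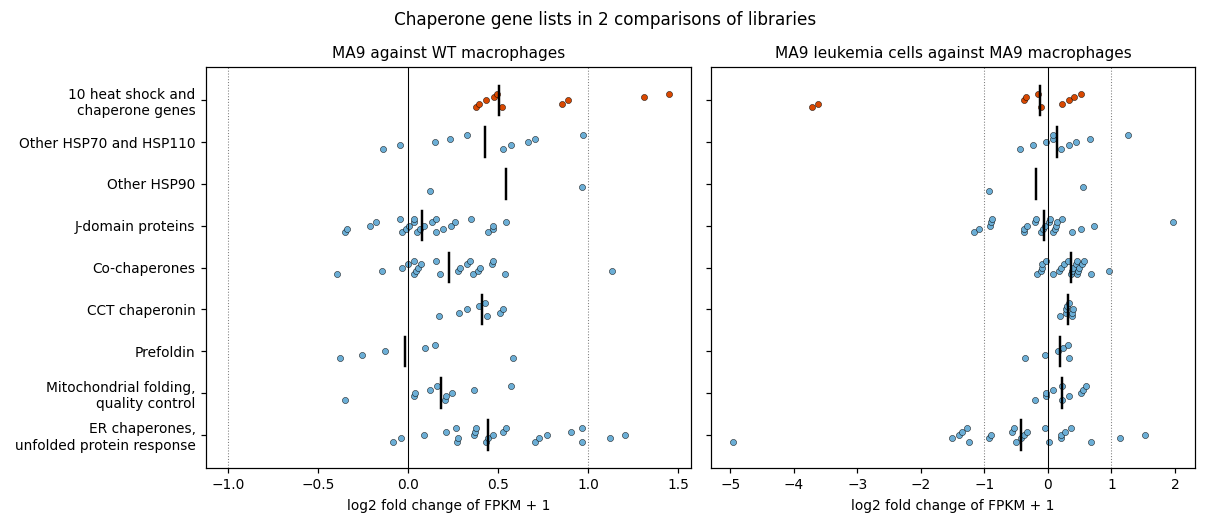
Log2 fold changes of FPKM + 1 of single genes (points) in the 10 heat shock and chaperone genes and in 8 chaperone lists, with the median of each as a bar and a fold of 2 as dotted lines. All 10 genes and all 8 CCT genes lie right of 0 in MA9 against WT macrophages, and Hspa1a and Hspa1b lie near -3.7 in MA9 leukemia cells against MA9 macrophages.

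In leukemia cells against macrophages the median of the ER list went the other way from that of CCT. It was -0.42 in MA9 and -0.35 in MA9/FE mice, and Derl3 was lowest at -4.96 and -4.90. Lower by a fold of at least 2 were 6 and 8 of 23 genes, and 2 and 1 were higher. Over all genes 12.7% and 13.3% were lower by this rule and 7.41% and 9.68% higher. The ER list summed to 2269 FPKM in MA9 leukemia cells against 2191 in MA9 macrophages. In MA9/FE mice the sums were 2182 and 2410 FPKM. P4hb, a protein disulfide isomerase, was higher by 1.52 in MA9 mice. Dnajc10, an ER J-domain reductase, was higher by 1.97 and 2.16, and Hspa2, an HSP70 best known from the testis, by 1.25 and 1.32. The CCT medians were 0.31 and 0.26. In both comparisons all 9 plasma cell markers passed the fold of 2 as lower. They summed to 2221 FPKM (MA9) and 2687 FPKM (MA9/FE) in macrophages and to 79.9 and 82.6 FPKM in leukemia cells, and their part in the ER list was not tested.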

How the data were processed

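Total RNA of sorted cells was sequenced on an Illumina NovaSeq. The authors deposited FPKM per Ensembl gene for each library; the submitters' processing notes name Bowtie2 2.2.5, RSEM and the mm10 build without roles. FPKM times exon length (GENCODE M21, GRCm38; 54495 genes) gave whole reads within 0.05 for 96.8% to 97.0% of values above 0, and the step gave the depth. Pairs of libraries were scaled by TMM (coded by hand), log2(FPKM + 1) was compared for genes with at least 10 reads in either library, and a fold of 2 was counted without a test. limma 3.58.1 (R 4.3.3) used genes with at least 10 reads in 2 libraries and Benjamini-Hochberg adjusted p-values over all genes. RSEM can divide shared reads between similar genes, but all values of Hspa1a and Hspa1b came out as whole reads. Which program counted the reads, and how it treated shared reads, is therefore not known. The 10 genes, the lists and the tests were chosen with earlier results of these data known. In each chaperone list, at most 4 genes per comparison were named, those with the largest change and at least 100 reads. Motif windows are RefSeq's 250 bases before a start. The fold rule and the limma fit over the 4 macrophage libraries were run on simulated data. The changes planted for limma were between mice with and without leukemia, so these runs cannot show whether the iron fits miss changes. Python 3.11.15 was used. The alternatives were other scalings, minimum reads, a pseudocount of 0.1 FPKM, removal of the trend on exon length and leaving out each pair.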

Additional observations from a re-analysis of the deposited data

Results flagged for a closer look

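For 4 of the 10 genes iron went with a lower level in WT macrophages and a higher level in MA9 macrophages, with counting intervals on opposite sides of 1, beside 9.74% of the 15560 genes kept in both comparisons. Each direction rests on 1 pair of libraries, and the difference was not tested. On the log2(FPKM + 1) scale, the change with iron in MA9 macrophages minus that in WT macrophages was 0.69 for Hspa1b (0.20 and -0.49), 0.59 for Hspa1a (0.36 and -0.23), 0.59 for Hspe1 (0.26 and -0.33) and 0.49 for Hspa5 (0.09 and -0.40). The difference was above 0 for 10 of the 10 genes with a median of 0.28, beside 52.1% of those genes and a median of 0.02. Hsph1 (0.06) and Hspd1 (0.04) were lower with iron in both kinds of mice and differed least. Under the alternative settings the lowest change with iron in MA9 macrophages was 0.26 for Hspa1a and 0.10 for Hspa1b. It was 0.09 for Hspe1 and 0.05 for Hspa5. The counting intervals were computed for the main setting only. Macrophage markers were higher in 15 of 15 cases with iron in MA9 macrophages (median 1.10), and their part was not tested.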

How the results depend on the processing

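Of the 7 counts of members with a fold of 2 under 7 alternatives each, 48 of 49 stayed within 1.5 times; with a pseudocount of 0.1 FPKM the count for iron in leukemia cells was 2. Of the 49 medians 48 moved by less than the counting error; with the length trend removed that of MA9/FE against WT/FE macrophages was 0.75. Of 490 values of single genes 452 moved by less than the counting error, none of those with a fold of 2 turned sign, and Dnajb1 (MA9/FE against MA9 macrophages) and Hsp90ab1 (iron in leukemia cells, with median of ratios) crossed 0. The number of members called by limma for leukemia was 2 and became 4 with total reads, with median of ratios or with at least 50 reads, and 0 without a minimum or with a pseudocount of 0.1; the cause was not tested. The iron fits called 0 members under all alternatives, including 0 to 0 when each pair was left out. The iron fit over 3 pairs had the kind of cell as its block, which pairs libraries and not animals; without this replicate block it also called 0 members. Hspa1a and Hspa1b in leukemia cells rest on 44 to 191 reads, which limits their ratios, and 1 library per condition limits all of them.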

Other observations

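Small heat shock proteins, which hold unfolded proteins without using ATP, were low in all 6 libraries, with 8 genes summing to between 3.32 and 4.68 FPKM and Hspb6 between 2.50 and 4.04 FPKM. Hsf1, the factor that binds heat shock elements, stayed between 8.90 and 10.6 FPKM and Hsf2 between 1.40 and 2.26 FPKM over the 6 libraries.

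The profile of Hspa1b over the 6 libraries was nearest to that of Hspa1a among 6485 genes with at least 100 reads and an SD of at least 0.3, at a distance of 0.281 on the centred log2(FPKM + 1) scale. The next 4 were Cd8b1 (0.780), Klf1 (0.814), Tigit (0.883) and Eaf2 (0.906). Of the stretches of 100 bases of Hspa1b, 49.9% occur in Hspa1a. The part of shared reads in the distance between Hspa1a and Hspa1b was not tested. The nearest to Hspa5 was Polr2l (0.164) and the nearest to Hspd1 was Bex3 (0.130), with the cell cycle genes Cenpk (0.177), Dbf4 (0.185) and Mastl (0.194) among its 5 nearest. Cenpk (0.330 to 2.33 FPKM) and Mastl (0.484 to 3.29 FPKM) were low, and this scale understates the change of low genes. All these distances are descriptions over 6 libraries that share their cell types and depth.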
